A study of Mus musculus with 31 samples.

Results

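The genes described are the arginases Arg1 and Arg2, the inducible nitric oxide synthase Nos2, the arginine transporter gene Slc7a2, the argininosuccinate synthase gene Ass1, and the polyamine genes Odc1, Srm, Sms, Sat1 and Oaz1. They were taken by symbol from the deposited table of gene counts. All 10 of the 10 symbols were among its 24411 entries, and all 10 passed the filter on low counts that left 12337 genes for testing. RNA-seq was made from Ly6C-high monocytes of C57BL/6J mice, sorted as CD11b+, Ly6G-, Ly6C-high and MHC-II-. There were 3 libraries from healthy mouse blood (healthy blood), 3 from the blood of mice with a subcutaneous Lewis lung carcinoma, a transplanted mouse lung tumor line (LLC blood), and 3 from LLC tumors (LLC tumor). No allele or drug is named for any group, and the age of the mice, the time after tumor injection and any pooling of animals are not given in the sources used here. The 22 samples of the other assays were not analysed here. The labels do not say that the RNA replicates came from separate mice, so p-values measure the spread between these libraries, which may be technical.

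Arginine stands at a branch point of macrophage metabolism. Arginase cuts it to ornithine and urea, while nitric oxide synthase oxidises it to citrulline and nitric oxide, and the enzymes draw on the same substrate. Ornithine is the entry to polyamine synthesis: ornithine decarboxylase makes putrescine, and spermidine synthase and spermine synthase extend it to spermidine and spermine. Spermidine/spermine acetyltransferase starts the breakdown of spermidine and spermine, and antizyme brings the decarboxylase to degradation. In mouse macrophages Arg1 and Nos2 are often read as opposed programs, and both have been measured in myeloid cells of tumors.

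Total counts were 10457492 to 20706412 per library. Levels are given in CPM, counts scaled to a common library total, and differences as log2 fold changes from a single edgeR quasi-likelihood fit to the 9 libraries with TMM scaling, each with its standard error (SE) and a Benjamini-Hochberg adjusted p. Genes with an adjusted p below 0.05 were called. CPM levels of different genes are not compared, because no transcript lengths were used. In these bulk libraries, fewer cells of a type and less RNA per cell cannot be told apart. Some libraries stood apart. LLC tumor 1 had a TMM factor of 0.798 against 0.968 and 1.00 for the other tumor libraries. Summed fibroblast markers (5 genes, collagens, Dcn and Pdgfra) were at 853, 3295 and 3689 CPM in LLC tumor 1 to 3, at 406 CPM in LLC blood 1, and at 1.25 to 15.0 CPM in the other blood libraries. The genes behind these sums differed. In LLC blood 1 the highest were Col1a1 (212 CPM) and Col1a2 (131 CPM). In tumor Col3a1 was highest, at 713 to 3099 CPM, with Col1a1 at 13.5 to 129 CPM. Summed epithelial markers, listed as possible signs of LLC cells, were at 63.1 to 101.3 CPM in tumor and 1.35 to 2.73 CPM in blood, and Krt19 and Epcam never exceeded 3 counts in a library. Macrophage markers (6 genes) summed to 1621 to 2107 CPM in tumor and 385 to 428 CPM in blood, endothelial markers (5 genes) to 51.1 to 69.5 CPM and 11.2 to 18.7 CPM, and neutrophil markers (9 genes) to 204 to 479 CPM and 177 to 758 CPM. T and NK cell markers (11 genes) summed to 2.07 to 4.61 CPM in tumor, 27.4 to 44.4 CPM in LLC blood and 187 to 489.6 CPM in healthy blood. B cell markers (5 genes) reached 163 CPM in healthy blood 2 and were at 1.72 to 24.0 CPM elsewhere. Erythroid markers (7 genes) summed to 168 to 920.4 CPM in blood and 1.08 to 3.46 CPM in tumor. The part of these cells in the results below was not tested. The monocyte genes Itgam, Ccr2 and Csf1r were high in all 9 libraries, with Itgam at 893 to 3720 CPM, Ccr2 at 1018 to 2392 CPM and Csf1r at 1172 to 2135 CPM. Ly6c2, a gene of the sorting antigen, was at 1571 to 1728 CPM in healthy blood, 1099 to 1237 CPM in LLC blood and 272 to 472 CPM in tumor. The MHC-II gene H2-Ab1, whose product was gated out, was at 121 to 221 CPM, 50.2 to 83.7 CPM and 42.2 to 93.9 CPM.

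RefSeq start-site windows (GRCm38.p6) were matched by symbol for 5 of the 10 genes, Ass1, Oaz1, Odc1, Sat1 and Sms. The Odc1 window belongs to a start site inside the gene: it ends at 17544872, past the gene start at 17544808. The 250 bases before the start are shown for 3 genes whose RNA changed (Odc1, Ass1 and Sms, the first of 2 Sms windows) and for Sat1, which was not called in any comparison, so that they can be set side by side. Capitals mark matches, on either strand, to the hypoxia response core ACGTG, the E-box CACGTG (which contains that core), the NF-kB pattern (GGG and CC with a gap of 5 bases), the interferon-gamma-activated pattern TTCNNNGAA, the C/EBP pattern TTGCNNNAA, the AP-1 pattern TGANTCA or TATAAA.
Odc1, chr12:17544623-17544872, plus strand: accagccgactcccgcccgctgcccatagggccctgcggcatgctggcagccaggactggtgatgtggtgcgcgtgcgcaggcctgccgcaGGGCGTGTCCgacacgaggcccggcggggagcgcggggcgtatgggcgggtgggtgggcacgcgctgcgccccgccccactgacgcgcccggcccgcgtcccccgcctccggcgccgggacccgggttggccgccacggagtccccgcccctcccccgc
Ass1, chr2:31470020-31470269, plus strand: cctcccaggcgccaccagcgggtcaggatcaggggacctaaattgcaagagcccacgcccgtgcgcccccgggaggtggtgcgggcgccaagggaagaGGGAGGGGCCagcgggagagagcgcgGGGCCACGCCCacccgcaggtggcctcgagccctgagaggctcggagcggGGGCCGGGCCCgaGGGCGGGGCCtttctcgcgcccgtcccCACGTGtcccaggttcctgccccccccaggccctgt
Sms, chrX:157492288-157492537, minus strand: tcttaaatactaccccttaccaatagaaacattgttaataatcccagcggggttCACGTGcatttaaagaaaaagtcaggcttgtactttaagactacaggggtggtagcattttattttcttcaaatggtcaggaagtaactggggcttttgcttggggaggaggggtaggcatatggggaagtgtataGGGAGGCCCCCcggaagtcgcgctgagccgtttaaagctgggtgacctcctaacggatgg
Sat1, chrX:155216450-155216699, minus strand: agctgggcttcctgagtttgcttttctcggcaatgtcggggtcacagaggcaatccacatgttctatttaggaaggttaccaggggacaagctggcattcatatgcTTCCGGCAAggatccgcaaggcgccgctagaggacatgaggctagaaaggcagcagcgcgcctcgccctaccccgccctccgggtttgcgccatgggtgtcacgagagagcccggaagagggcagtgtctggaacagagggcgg

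The E-box CACGTG lay 36 to 31 bases before the start of Ass1 and 196 to 191 bases before the first Sms start. It was found in 6.02% of all 32851 windows of that length, and its core ACGTG in 16.6%. The NF-kB pattern was matched in Odc1, Ass1, Sms and Oaz1, but also in 45.8% of all windows. In the Sat1 window only the C/EBP pattern was matched, 144 to 136 bases before the start, which 8.29% of windows hold. Odc1 had 80.0% G and C, Ass1 75.6% and the shown Sms window 47.2%. Sat1 had 59.6% and Oaz1 58.0%, and the median over all windows was 52.4%. A match describes letters and is not a binding site.

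**Figure D1:**
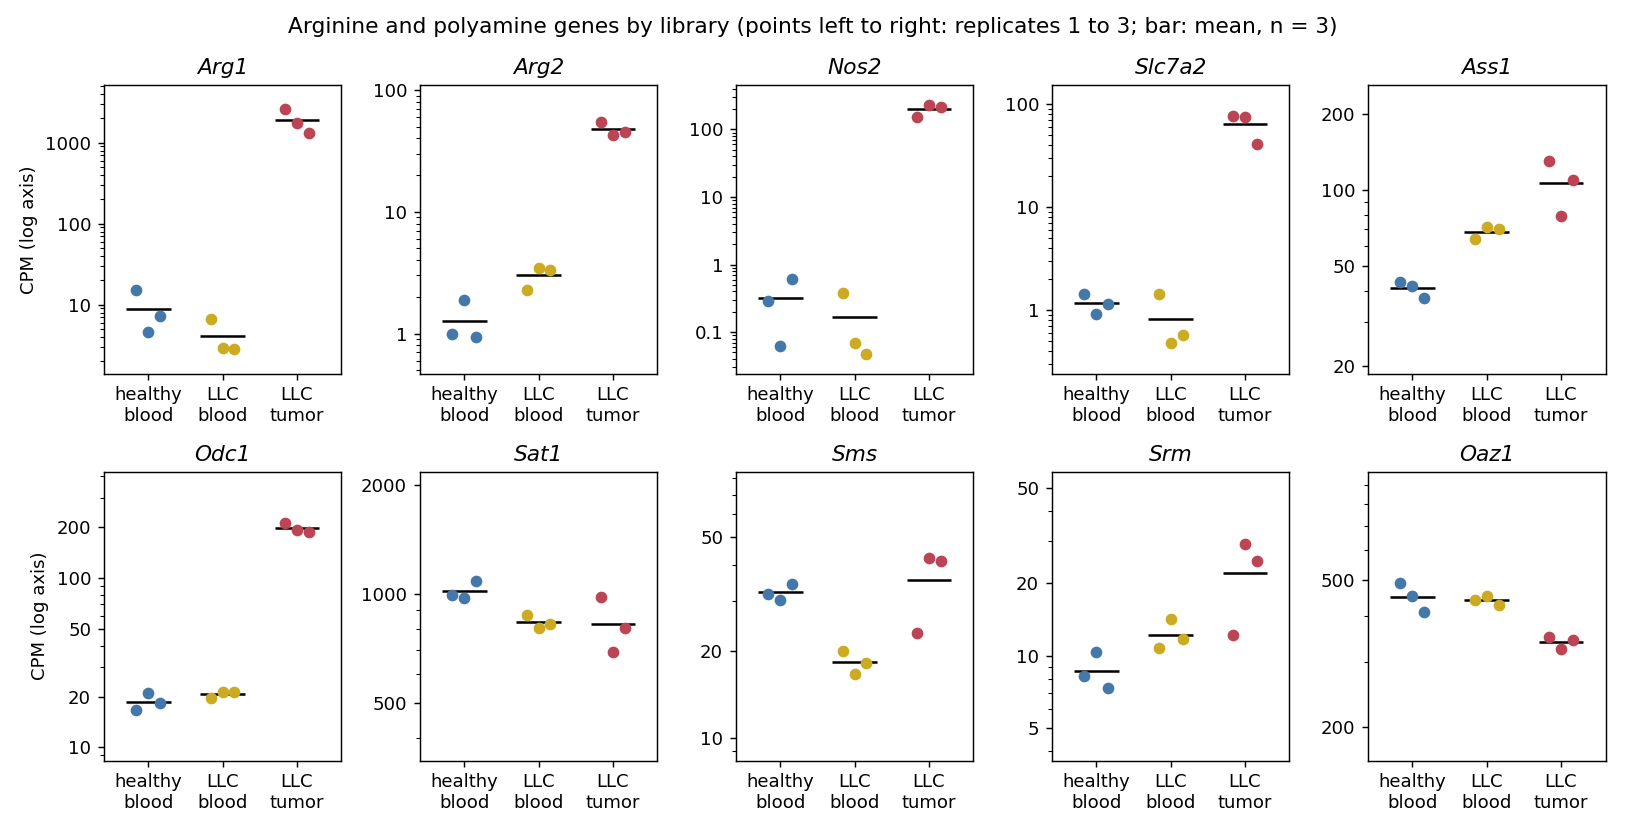
CPM of each gene (log axis, own scale per panel) in the 9 libraries, with the 3 libraries of each source as points in replicate order and their mean as a bar. Arg1, Arg2, Nos2, Slc7a2 and Odc1 stand far above blood in all 3 tumor libraries, while Sat1 and Oaz1 stay within a narrow range.

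The arginase and nitric oxide synthase routes rose together in tumor monocytes. In LLC tumor against LLC blood, 8 of the 10 genes rose and 0 fell, where 61.3% of all tested genes were called (29.6% higher and 31.7% lower). The median log2 fold change of the 10 was 2.30, against -0.03 over all tested genes. Nos2, which is part of that count and median, passed the filter on low counts only through the tumor libraries. In LLC tumor against healthy blood 7 rose and 0 fell, where 66.5% of genes were called (33.5% higher and 33.0% lower), with a median of 2.59 against -0.00. Scaling by library totals alone lowered the higher share of the calls from 48.3% to 36.3% against LLC blood, with a median of all genes at -0.23, and from 50.4% to 40.6% against healthy blood, with a median at -0.17. Upper-quartile factors moved the latter median to -0.10.

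Arg1 (ENSMUSG00000019987, chromosome 10, 24915207 to 24927470, GRCm38) encodes the cytosolic arginase. Its level was 15.0, 4.61 and 7.17 CPM in healthy blood 1 to 3, then 6.69, 2.91 and 2.80 CPM in LLC blood, and 2581, 1756 and 1333 CPM in LLC tumor. Every tumor library lay above every blood library, and the tumor libraries differed among themselves 1.94-fold. Arg1 rose 567-fold from LLC blood (log2 fold change 9.15 ± 0.63 SE, adjusted p 2.75e-06) and 248-fold from healthy blood (7.95 ± 0.59, adjusted p 3.54e-06). In blood the groups overlapped and the difference was not called (-1.19 ± 0.55, adjusted p 0.147). Within each blood group, replicate 1 was the highest. For LLC blood that is the library with 406 CPM of fibroblast markers, and without it the blood difference was -1.65 (adjusted p 0.0908). Without healthy blood 1 the difference was -0.60 (adjusted p 0.484).

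Arg2 (ENSMUSG00000021125, chromosome 12, 79130788 to 79156301) encodes the mitochondrial arginase. It was at 1.00, 1.90 and 0.934 CPM in healthy blood, at 2.26, 3.46 and 3.30 CPM in LLC blood, and at 55.1, 42.4 and 45.0 CPM in LLC tumor. The 3 groups did not overlap and stood in that order. Arg2 was 2.33-fold higher in LLC blood than in healthy blood (log2 fold change 1.22 ± 0.33 SE, adjusted p 0.0269), a comparison in which 23.6% of all genes were called. Leaving out any one of healthy blood 1, healthy blood 3, LLC blood 2 and LLC blood 3 ended this call, and the adjusted p over all 16 alternatives ran from 0.00301 to 0.106. From LLC blood to tumor it rose 18.0-fold (4.17 ± 0.28, adjusted p 2.02e-06). Its counts were not whole in any of the 9 libraries, as counts shared with other genes are, and it overlaps Vti1b and Gm40462 in RefSeq, so its level is uncertain where reads were split.

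Nos2 (ENSMUSG00000020826, chromosome 11, 78920787 to 78960226), the inducible nitric oxide synthase, was near the detection limit in blood. It had 4, 1 and 10 counts in healthy blood, 4, 1 and 1 counts in LLC blood, and 1686, 2574 and 2497 counts in LLC tumor. As levels these were 0.0614 to 0.613 CPM, 0.0483 to 0.383 CPM and 152 to 228 CPM. At such blood levels, Nos2 passed the filter on low counts only through the tumor libraries, where it is high. Its test could therefore hardly have shown a fall in tumor. Summed counts gave a 1514-fold higher level in tumor than in LLC blood, with an exact 95% interval of 695 to 4128 that covers counting error only. Against healthy blood the fold was 618, with an interval of 375 to 1106. Single blood libraries moved these folds. The tumor rise over LLC blood was called (log2 fold change 10.63 ± 0.38 SE, adjusted p 1.35e-07) and was 11.72 without LLC blood 1. Over healthy blood it was 9.39 ± 0.34 (adjusted p 1.23e-07), and 10.29 without healthy blood 3. The blood groups overlapped and could not be separated at this depth (adjusted p 0.317).

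Slc7a2 (ENSMUSG00000031596, chromosome 8, 40862341 to 40922070) encodes the cationic amino acid transporter CAT2, which brings arginine into activated macrophages. It was at 1.43, 0.922 and 1.16 CPM in healthy blood, at 1.43, 0.484 and 0.580 CPM in LLC blood, and at 77.1, 75.8 and 41.1 CPM in LLC tumor. The tumor libraries were all higher, with LLC tumor 3 the lowest of them. Its level rose 97.8-fold over LLC blood (log2 fold change 6.61 ± 0.42 SE, adjusted p 1.60e-06), and blood did not differ beyond its spread (-0.63 ± 0.56, adjusted p 0.452).

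Ass1 (ENSMUSG00000076441, chromosome 2, 31470270 to 31520670) encodes argininosuccinate synthase, which starts the rebuilding of arginine from citrulline. It rose at each step. Levels were 43.4, 41.8 and 37.4 CPM in healthy blood, 63.9, 71.5 and 70.3 CPM in LLC blood, and 131, 78.9 and 110.3 CPM in LLC tumor. No groups overlapped. The blood difference was 1.65-fold (log2 fold change 0.72 ± 0.22 SE, adjusted p 0.0399), and it lost its call in 7 of 16 alternatives, those that left out any one blood library or LLC tumor 3, with adjusted p from 0.000252 to 0.135 over the 16. From LLC blood to tumor Ass1 rose 1.83-fold (0.87 ± 0.21, adjusted p 0.00611).

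**Figure D2:**
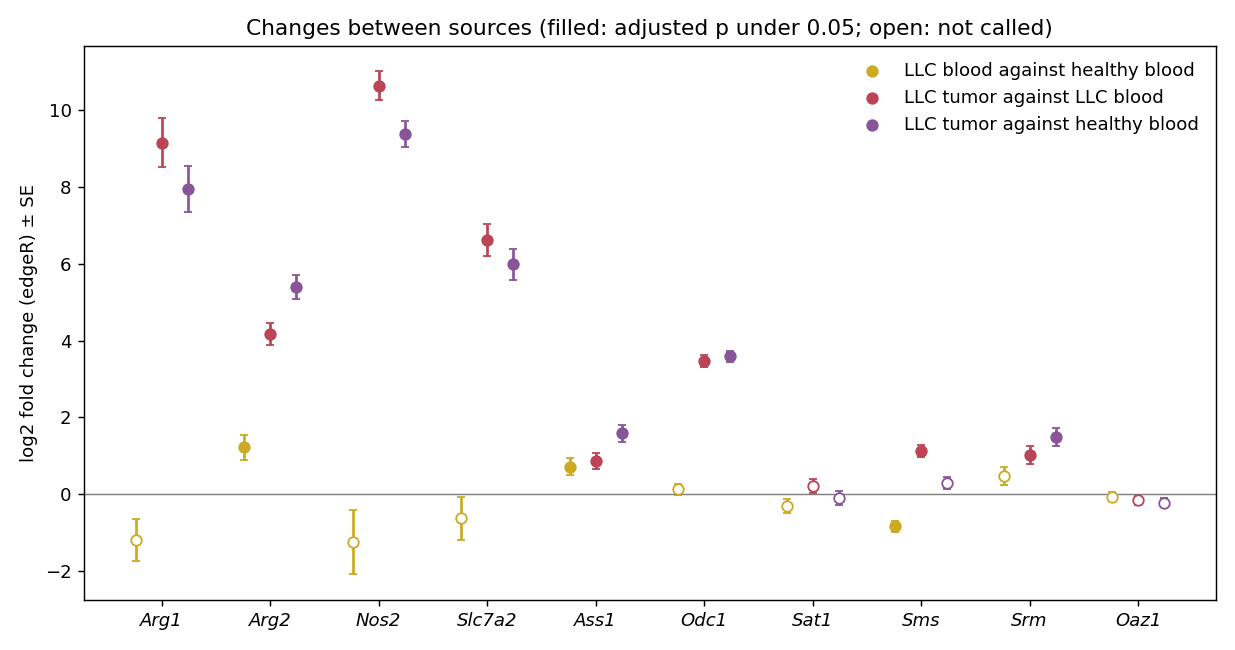
Log2 fold changes (vertical axis, edgeR) of the 10 genes in the 3 comparisons, with bars of 1 SE and filled points for an adjusted p under 0.05. In tumor against LLC blood 8 points are filled and positive, from 0.87 for Ass1 to 10.63 for Nos2, and in blood only Arg2, Ass1 and Sms are filled.

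Set side by side in the same libraries, Arg1 and Nos2 were both low in all 6 blood libraries and both high in all 3 tumor libraries. No library showed one high and the other low. Among the tumor libraries their order differed: LLC tumor 1 had the highest Arg1 (2581 CPM) and the lowest Nos2 (152 CPM), and it was also the library with the lowest fibroblast markers. The log2 ratio of Arg1 to Nos2, each with 0.5 CPM added, was 4.08, 2.94 and 2.62 in tumor libraries 1 to 3. It was 4.30, 3.19 and 2.79 for healthy blood and 3.03, 2.58 and 2.59 for LLC blood. The groups overlapped. The mean ratio was 0.48 higher in LLC tumor than in LLC blood (exact 2-sided permutation test, p 0.5, where 0.1 is the smallest p that 3 against 3 allows). It differed by -0.21 between tumor and healthy blood (p 0.6) and by -0.69 between LLC blood and healthy blood (p 0.2), the latter -0.25 without healthy blood 1. These differences depend on the constant added to the few Nos2 counts of blood: with 0.1 CPM the difference of tumor from LLC blood was -0.87, and with 1 CPM it was 1.14.

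**Figure D3:**
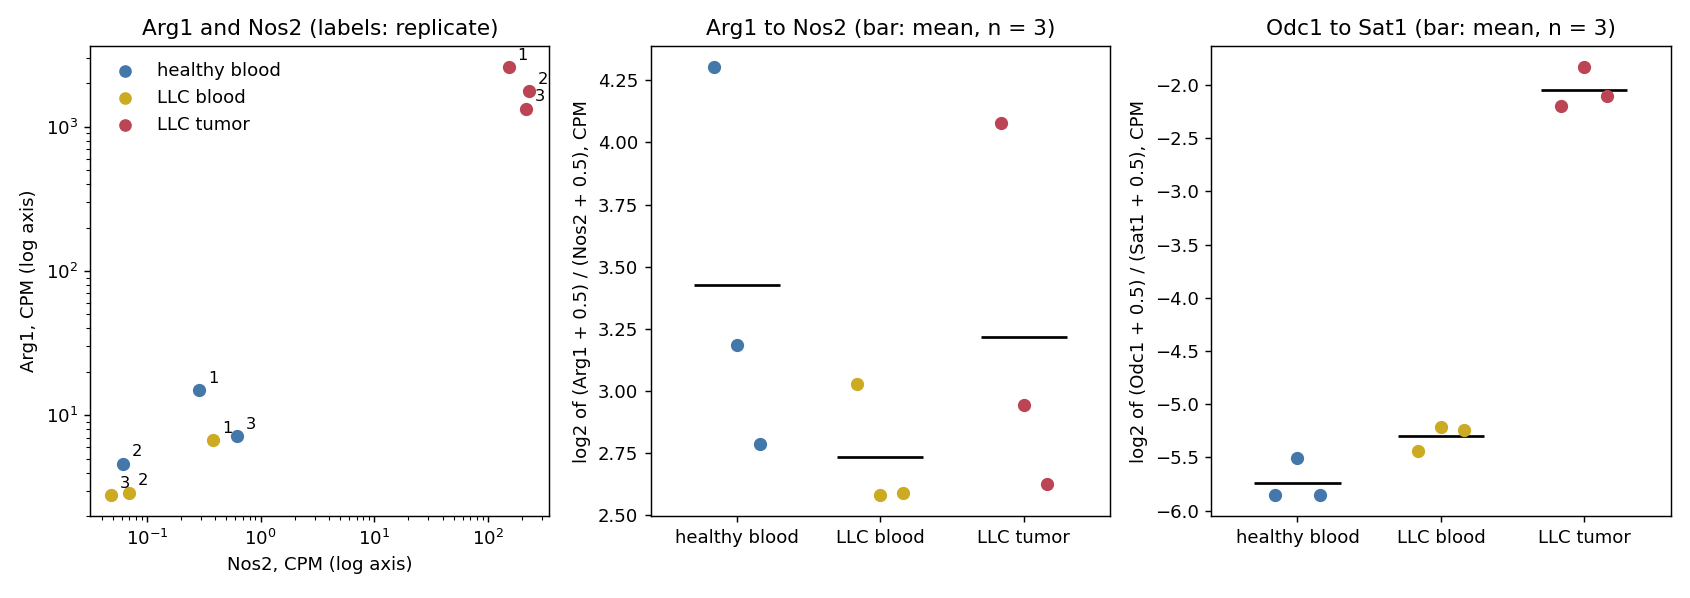
Left, Arg1 against Nos2 in CPM (both axes log) for the 9 libraries, labelled by replicate. Middle and right, log2 ratios of Arg1 to Nos2 and of Odc1 to Sat1 per library with the mean of 3 as a bar: the first overlaps between sources (2.58 to 4.30), and the second is -2.20 to -1.83 in tumor and -5.85 to -5.22 in blood.

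Odc1, Srm and Sms rose from LLC blood to tumor, Odc1 and Srm were also called above healthy blood and Sms was not, and Sat1 and Oaz1 were not called in any comparison. Odc1 (ENSMUSG00000011179, chromosome 12, 17544808 to 17551502), which encodes ornithine decarboxylase, was at 16.7, 20.9 and 18.4 CPM in healthy blood, at 19.7, 21.2 and 21.3 CPM in LLC blood, and at 213, 194 and 187 CPM in LLC tumor. Blood libraries overlapped and all tumor libraries were higher. It rose 11.1-fold from LLC blood (log2 fold change 3.47 ± 0.15 SE, adjusted p 2.38e-07). In blood the difference was 0.13 ± 0.14 (adjusted p 0.559), with an approximate 95% interval of -0.15 to 0.41. Odc1 counts were not whole in any library, so a share of its reads was split with other genes.

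Srm (ENSMUSG00000006442, chromosome 4, 148591513 to 148594619), the spermidine synthase gene, was at 8.22, 10.4 and 7.30 CPM in healthy blood, 10.7, 14.2 and 11.8 CPM in LLC blood, and 12.2, 29.3 and 24.8 CPM in LLC tumor. In CPM, which leaves out the TMM factor of 0.798, LLC tumor 1 fell within the range of LLC blood. The other tumor libraries lay above that range. The rise from LLC blood was 2.02-fold (log2 fold change 1.01 ± 0.23 SE, adjusted p 0.00429) and 1.27 on the log2 scale without LLC tumor 1 (adjusted p 8.44e-05). In blood it was not called (0.48 ± 0.24, adjusted p 0.183), although every LLC blood library lay above every healthy one.

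Sms (ENSMUSG00000071708, chromosome X, 157443851 to 157492287), the spermine synthase gene, moved down in blood and up in tumor. It was at 31.8, 30.2 and 34.3 CPM in healthy blood, 20.1, 16.7 and 18.2 CPM in LLC blood, and 23.2, 42.2 and 41.2 CPM in LLC tumor. Its LLC blood level was 1.79-fold below that of healthy blood (log2 fold change -0.84 ± 0.15 SE, adjusted p 0.00424), with no overlap, where 9.61% of all genes were called lower. That call was present in all 16 alternatives (-0.94 to -0.77). It rose 2.19-fold from LLC blood to tumor (1.13 ± 0.15, adjusted p 0.000156). Tumor was not called against healthy blood (0.29 ± 0.15, adjusted p 0.105), but was without LLC tumor 1 (0.43, adjusted p 0.00351), the library with both the lowest Srm and the lowest Sms of the tumor group and the lowest fibroblast markers. Sms counts were not whole in 6 libraries.

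Sat1 (ENSMUSG00000025283, chromosome X, 155213126 to 155216449), whose product acetylates spermidine and spermine for export or oxidation, was at 994, 974 and 1088 CPM in healthy blood, 874, 807 and 824 CPM in LLC blood, and 981, 691 and 805 CPM in LLC tumor. Every LLC blood library was below every healthy one, and tumor overlapped LLC blood. None of its 3 comparisons was called, with log2 fold changes of -0.31 ± 0.18 SE in blood (adjusted p 0.251), 0.21 ± 0.18 from LLC blood to tumor (adjusted p 0.341, approximate 95% interval -0.15 to 0.57) and -0.10 ± 0.18 from healthy blood to tumor (adjusted p 0.643). The sign from LLC blood to tumor turned with library totals only (-0.01) and without LLC tumor 1 (-0.03), and that from healthy blood to tumor turned without LLC tumor 2 (0.07). Without LLC tumor 1, Sat1 was called below healthy blood both in LLC blood (-0.36, adjusted p 0.00751) and in tumor (-0.40, adjusted p 0.00371).

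Oaz1 (ENSMUSG00000035242, chromosome 10, 80826656 to 80829290), the gene of ornithine decarboxylase antizyme, was at 489, 453 and 409.9 CPM in healthy blood, 441, 452 and 428 CPM in LLC blood, and 351, 325 and 343 CPM in LLC tumor. In CPM all tumor libraries were below all blood libraries. Under TMM its change from LLC blood missed the threshold (log2 fold change -0.16 ± 0.12 SE, adjusted p 0.26). It was called lower with library totals only (-0.37, adjusted p 0.00179, beside a median of -0.23 over all genes) and without LLC tumor 1 (-0.27, adjusted p 0.0187). From healthy blood to tumor it was -0.22 ± 0.12 (adjusted p 0.124), and -0.38 without LLC tumor 1 (adjusted p 0.00276).

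The log2 ratio of Odc1 to Sat1, each with 0.5 CPM added, was -2.20, -1.83 and -2.10 in tumor libraries 1 to 3. It was -5.85, -5.51 and -5.85 for healthy blood and -5.44, -5.22 and -5.24 for LLC blood. The 3 groups did not overlap. The ratio was 3.25 higher in LLC tumor than in LLC blood and 0.44 higher in LLC blood than in healthy blood (exact 2-sided permutation test, p 0.1 each, the smallest that 3 against 3 allows). With Srm and Sms averaged with Odc1 on the log2 scale, the tumor difference was 1.65 and the blood difference 0.23.

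In LLC blood against healthy blood the 10 genes divided: 2 rose (Arg2 and Ass1), 1 fell (Sms) and 7 were not called, against 14.0% of all tested genes called higher and 9.61% lower. Their median was -0.19, against -0.01 over all tested genes. The called share is close to the background. Upper-quartile factors moved the higher share of all calls from 59.4% to 46.3%. When healthy blood 1, healthy blood 3, LLC blood 2 or LLC blood 3 was left out, 1 of the 10 genes, Sms, was called. The comparisons of LLC tumor with LLC blood and of LLC blood with healthy blood share the LLC blood libraries.

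A further 54 genes of arginine and polyamine metabolism were listed by role, and 40 of them passed the filter. From LLC blood to tumor 16 rose, 15 fell and 9 were not called, where 29.6% of all tested genes were called higher and 31.7% lower, with a median log2 fold change of 0.28 against -0.03 over all tested genes. From healthy blood to tumor 15 rose and 17 fell, where 33.5% and 33.0% of all genes did, with a median of 0.19 against -0.00. Gchfr, which is part of these tumor counts and medians, passed the filter on low counts only through the tumor libraries. In blood 4 rose, 3 fell and 33 were not called, where 14.0% and 9.61% of all genes were higher and lower. The listed genes moved in either direction in tumor, by counts of nearly equal size.

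Among 7 tested transport genes, 3 rose and 1 fell from LLC blood to tumor, where 29.6% of all tested genes were called higher and 31.7% lower. Slc3a2, the heavy chain that many amino acid transporters need, was at 50.0 to 54.1 CPM in LLC blood and 313 to 420.2 CPM in tumor (log2 fold change 3.02 ± 0.18 SE, adjusted p 1.16e-06). Slc7a1, which encodes the arginine transporter CAT1, rose in blood (0.37 ± 0.10, adjusted p 0.031) and again in tumor (0.82 ± 0.10, adjusted p 0.000114). Slc25a15, the mitochondrial ornithine carrier gene, rose by 0.92 ± 0.13 (adjusted p 0.000197). Of the 4 further urea cycle genes, listed beside Arg1 and Ass1, only Asl, whose product releases arginine from argininosuccinate, passed the filter. It rose in tumor (0.56 ± 0.11, adjusted p 0.00183). Cps1, Otc and Nags, the liver enzymes of the cycle, had 0 or 1 count in each library.

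The list around nitric oxide and its cofactor tetrahydrobiopterin was mixed, with 4 of 9 tested genes higher and 3 lower from LLC blood to tumor. Gchfr, 1 of the 4, had 0 to 5 counts in each blood library and passed the filter on low counts only through the tumor libraries. Over all tested genes 29.6% were called higher and 31.7% lower. Ddah2, which breaks down an inhibitor of nitric oxide synthase, was at 1.53 to 2.22 CPM in LLC blood and at 4.51 to 10.5 CPM in tumor, a rise (2.31 ± 0.29, adjusted p 0.000105). Pts, the middle enzyme of cofactor synthesis, fell (-1.02 ± 0.10, adjusted p 1.8e-05). In blood, where 23.6% of all tested genes were called, 1 gene of this list was called. It was Qdpr, which recycles the cofactor and fell (-0.50 ± 0.09, adjusted p 0.00364). Ddah2, like Srm and Sms, was lowest in LLC tumor 1 of the tumor libraries.

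Of the genes for other fates of ornithine and arginine, 4 of 7 tested rose and 2 fell from LLC blood to tumor. Over all tested genes 29.6% were called higher and 31.7% lower. Gatm, the first enzyme of creatine synthesis, rose in blood (1.19 ± 0.27, adjusted p 0.0129) and in tumor (0.78 ± 0.26, adjusted p 0.026), while Gamt, the second, fell in tumor (-0.85 ± 0.18, adjusted p 0.00272). Aldh18a1, which opens proline and ornithine synthesis from glutamate, rose in blood (0.56 ± 0.13, adjusted p 0.0147) and in tumor (0.70 ± 0.13, adjusted p 0.00123). In CPM, which leaves out the TMM factors (0.798 for LLC tumor 1), tumor overlapped LLC blood for Gatm and Aldh18a1. LLC tumor 1 was again the lowest, at 15.1 CPM and 25.4 CPM. The calls use TMM scaling, which raises that library relative to the others.

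Of 12 tested genes of the further polyamine list, 2 rose and 7 fell from LLC blood to tumor, beside the 29.6% and 31.7% of all tested genes. The fallers were Amd1, Oaz2, Paox, Atp13a2, Mri1, Apip and Enoph1. Of these, Mri1, Apip and Enoph1 belong to methionine salvage. Mtap (0.42 ± 0.27, adjusted p 0.205) and Adi1 (-0.20 ± 0.24, adjusted p 0.493) of the same pathway were not called. The risers were Smox, the spermine oxidase gene, at 75.7 to 82.1 CPM in LLC blood and 628 to 781 CPM in tumor (3.42 ± 0.16, adjusted p 3.12e-07), and Azin1, the antizyme inhibitor gene, at 104 to 123 CPM and 224 to 292 CPM (1.32 ± 0.17, adjusted p 0.000148). Amd1, which supplies the aminopropyl donor for Srm and Sms, fell, with 101 to 127 CPM in LLC blood and 49.3 to 54.7 CPM in tumor (-0.94 ± 0.12, adjusted p 0.000146). In blood Oaz2, another antizyme gene, fell (-0.38 ± 0.08, adjusted p 0.00742) and Atp13a3, a polyamine carrier gene, rose (0.47 ± 0.11, adjusted p 0.0155). Spermidine is also used to make hypusine on the translation factor eIF5A. In blood, where 23.6% of all tested genes were called, 1 of the 4 genes of that step was called. It was Dhps, which fell (-0.36 ± 0.10, adjusted p 0.0294). From LLC blood to tumor 2 of the 4 rose and 2 fell, beside the 29.6% and 31.7% of all tested genes. Eif5a (0.55 ± 0.08, adjusted p 0.000304) and Dhps (0.50 ± 0.10, adjusted p 0.00193), which starts hypusine synthesis, rose. Eif5a2 (-0.61 ± 0.13, adjusted p 0.00315) and Dohh (-0.36 ± 0.10, adjusted p 0.0143) fell.

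**Figure D4:**
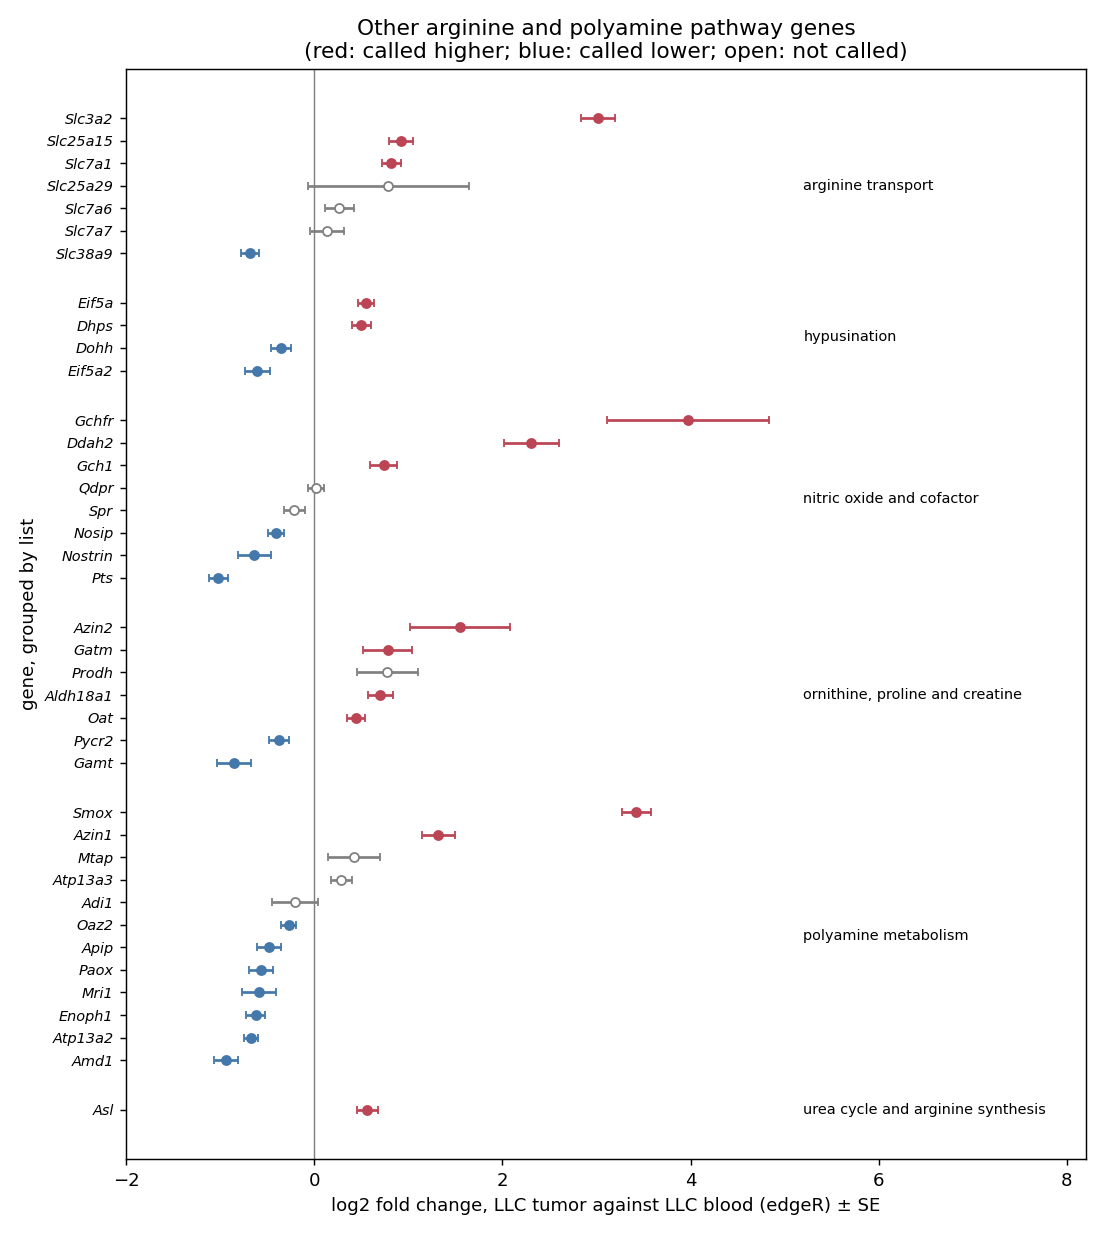
Log2 fold changes (horizontal axis, edgeR, bars of 1 SE) from LLC blood to LLC tumor of 39 of the 40 tested further pathway genes, grouped by list. Gchfr (3.97, a low gene with a wide bar that passed the filter only through the tumor libraries), Smox (3.42) and Slc3a2 (3.02) lie farthest to the right. In the polyamine list 7 of 12 genes are called lower, among them Mri1, Apip and Enoph1 of methionine salvage. Mtap and Adi1 of the same pathway are not called.

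Genes often measured beside Arg1 and Nos2 also moved on both sides. From LLC blood to tumor, 29.6% of all tested genes were called higher and 31.7% lower. Of 9 tested genes of alternative activation, 6 rose and 2 fell. Ccl24 (7.17 ± 0.42, adjusted p 1.07e-06), Mrc1 (6.04 ± 0.29, adjusted p 3.68e-07) and Egr2 (5.78 ± 0.46, adjusted p 6.43e-06) rose most among genes averaging 5 CPM or more. Ccl24 passed the filter on low counts only through the tumor libraries. Chil3 fell from a mean of 2999 CPM to 1224 CPM (-1.08 ± 0.15, adjusted p 0.000194), and Clec10a from 40.2 CPM to 11.4 CPM (-1.63 ± 0.10, adjusted p 1.35e-06). Of 10 tested genes of classical activation, 7 rose and 1 fell. Among the 10, Il6 had 0 to 2 counts in each blood library and 73 to 88 in tumor. It passed the filter on low counts only through the tumor libraries, and it enters the count and the median of this list. Ptgs2 (9.89 ± 0.70, adjusted p 3.1e-06), Cxcl10 (5.01 ± 0.70, adjusted p 0.000201) and Il1b (4.75 ± 0.32, adjusted p 2.35e-06) rose most among genes averaging 5 CPM or more. Irf1 fell, with 173 to 207 CPM in LLC blood and 61.1 to 117 CPM in tumor. The medians of the alternative and classical lists were 1.68 and 2.79, against -0.03 over all genes. In LLC blood against healthy blood, 14.0% of all tested genes were called higher and 9.61% lower. Of the first list 0 rose and 3 fell, among them Mrc1 (-1.70 ± 0.26, adjusted p 0.0023) and Clec10a (-0.42 ± 0.09, adjusted p 0.011). Of the second list 1 rose, Cd38 (2.24 ± 0.68, adjusted p 0.041), and 2 fell, Cxcl10 (-2.77 ± 0.67, adjusted p 0.0164) and Cxcl9 (-2.63 ± 0.64, adjusted p 0.0165).

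By Pearson correlation of log2 CPM (0.5 CPM added) over the 9 libraries, the genes most like Arg1 among 6896 others with a mean of at least 20 CPM were Ccl7 (r 0.997), Ccl2 (0.997) and Mmp12 (0.997). Those most like Nos2 were Clip2 (0.999), Mmp14 (0.997) and Fkbp1a (0.997), and those most like Odc1 were Got1 (0.999), Pfkl (0.998) and Ppme1 (0.998). The 9 points fall into tumor and blood, and 410 genes for Arg1, 489 for Nos2 and 517 for Odc1 exceeded 0.95, so the values mainly describe that split.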

How the data were processed

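The authors deposited a table of estimated counts (expected counts per gene symbol, not normalized) for 9 RNA-seq libraries, made per the labels' protocols from TRIzol RNA with TruSeq libraries on a HiScanSQ. Trim Galore 0.6.7, cutadapt 3.4, STAR 2.6.1d, Salmon 1.9.0, edgeR and the build mm10 are among the names in the submitters' processing notes, which give no roles; strand setting and annotation are not given in the sources used here. Blood columns are headed BM, taken to mean monocytes of blood since that is the source in the titles. The deposited CPM table was not used.

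Counts were rounded and fitted with edgeR 4.0.16 (R 4.3.3): quasi-likelihood, group as the only term, TMM, filterByExpr, Benjamini-Hochberg over 12337 genes in each of 3 comparisons. SE is the absolute log2 fold change divided by the square root of F, and approximate 95% intervals are 1.96 SE wide on each side. CPM uses library totals of 10457492 to 20706412 counts; 3 counts are 0.145 to 0.287 CPM. The fit was tested on simulated data. Ratios were compared by exact permutation.

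Alternatives were DESeq2 1.42.0, upper-quartile factors, library totals only, no count filter, only the 6 libraries compared, a replicate block, limma-voom 3.58.1 with quality weights, and each library left out. Named pathway genes are at most the 3 called genes per list and comparison with the largest change, averaging 5 CPM or more in the 6 libraries compared. Genes that fell from LLC blood to tumor in the polyamine, hypusine and activation lists are also named. The result of 1 listed pathway gene is not reported here, though the list counts include it. The 10 genes and all lists were chosen with earlier results of these data known. Identifiers and coordinates of the 10 genes come from gene tables of GRCm38 (RefSeq GRCm38.p6 for positions), and 10 of 10 matched.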

Additional observations from a re-analysis of the deposited data

How the results depend on the processing

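In the tumor comparisons no call of the 10 genes was lost under the 16 alternatives, 3 values gained one from LLC blood to tumor and 9 from healthy blood to tumor; in blood 11 calls were lost, all by leaving out a library, and 6 were gained. The cause was not tested. In blood, limma-voom called 5 of the 10 genes (2 lower), as did a fit to only the 6 libraries compared (5, with 2 lower), and a replicate block called 2 lower. From LLC blood to tumor, library totals only and limma-voom each called 1 gene lower. From healthy blood to tumor, upper-quartile factors called 1 lower, and library totals only and limma-voom 2 each. Leaving out 1 library gave 1 to 4 genes called in blood (0 to 2 higher, 1 to 2 lower), 0 to 1 lower from LLC blood to tumor and 0 to 2 lower from healthy blood to tumor, the upper values without LLC tumor 1 (for genes higher in blood, also without LLC tumor 2). Over all genes the blood comparison called 5884 with limma-voom (3003 higher, 2881 lower), 4889 with only the 6 libraries (2411 lower), and from 1494 (LLC blood 2 left out) up to 5064 (LLC tumor 1 left out), 1019 to 2181 higher and 467 to 2883 lower, against 2917. The further pathway genes called in blood numbered 7, or 15 with limma-voom, 11 with only the 6 libraries, and 2 (without LLC blood 2 or 3), 4 (without healthy blood 1 or 3) and 11 (without LLC tumor 1).

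The Arg1 to Nos2 difference from LLC blood to tumor was -0.87 with 0.1 CPM added, 1.14 with 1 CPM and -0.28 with Arg1 and Arg2 summed; from healthy blood to tumor it was -1.28 with 0.1 CPM. Without 1 library these differences were 0.05 to 0.78 and -0.64 to 0.23, and that in blood -1.01 to -0.25. The Odc1 to Sat1 difference became 0.23 in blood, 1.65 from LLC blood to tumor and 1.88 from healthy blood to tumor when Odc1, Srm and Sms were averaged. Deviations from the group means of same-numbered libraries correlated at 0.07 to 0.30 between the blood groups, 0.05 to 0.09 between healthy blood and tumor and -0.14 to 0.12 between LLC blood and tumor. Not every pair was above 0.1 in any comparison and the labels name no shared animal or batch, so the numbers were not taken to pair the libraries. Under the replicate block Arg1 in blood was -1.12 (adjusted p 0.00974), a call absent without the block; no other call of the 10 genes changed. Depth limits Nos2 most, with 6 counts over the 3 LLC blood libraries.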
